A study of Mus with 3 samples.

Results

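The 10 genes described here, Aqp4, Slc1a2, Slc1a3, Gja1, Gjb6, Aldh1l1, Glul, S100b, Kcnj10 and Aldoc, are genes by which astrocytes take up, convert and pass on water, ions, glutamate and metabolites, together with astrocyte markers. They were taken by gene name from the array's probe annotation, which gave 13 probes and 22 spots, out of 23692 named genes, 39429 gene probes and 43020 gene spots. RNA came from the hippocampus of 6-week-old male mice of the outbred Slc:ddY stock. ASO mice received 2000 mg/kg/day of shochu oil, an oil from a sweet potato spirit, by mouth for 15 days, and 5 µL with 10 nmol of Aβ25-35, a toxic amyloid β fragment, into the cerebral ventricles on day 8. ACO mice received distilled water by mouth and the same peptide. NCO mice received distilled water by mouth and 5 µL of distilled water, by a route the labels do not spell out, so effects of an injection and of the peptide cannot be told apart if that route differed. All mice ran a Y-maze on day 16 before the hippocampus was collected. Each group was 1 pool of 10 mice on 1 one-colour array, so no test between groups was possible, and with 3 arrays in all their number limits the precision.

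Astrocytes clear potassium, glutamate and water from the space around synapses. Glutamate enters through SLC1A2 and SLC1A3 and is turned into glutamine by the enzyme encoded by Glul, potassium enters through the channel encoded by Kcnj10, and water crosses the endfeet through AQP4. Gap junctions built of the connexins encoded by Gja1 and Gjb6 join astrocytes into a network through which ions and metabolites pass. In hippocampal tissue, a lower signal can stand for fewer astrocytes or for less RNA per cell, and bulk arrays cannot tell these apart.

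Signals below are background-corrected intensities scaled to a common 75th percentile of each array, and differences are taken on log2(signal + 50), so that a positive value of ASO minus ACO means a higher signal on ASO. The arrays held 21186 gene probes well above background on ASO, 20371 on ACO and 20070 on NCO, which was 53.7%, 51.7% and 50.9% of them. All 13 probes of the 10 genes were well above background on the 3 arrays, with a lowest signal to noise score of 25.2 and 0% of saturated pixels, so the astrocyte markers were present in each pool. Spot error was read from 250 probes printed at 10 spots each. The median SD of their difference over spots was 0.09 for ASO minus ACO, 0.10 for ASO minus NCO and 0.08 for ACO minus NCO. It holds spot error within an array only, not the spread between mice or pools. The 3 comparisons share arrays, so they are not independent of each other.

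Gjb6 stood highest on the ASO array, and it was the gene of the 10 with the widest range over the arrays. The gene encodes connexin 30, the second astrocyte connexin. Its single probe, printed at 1 spot, had a signal of 3277 on ASO, 2349 on ACO and 2241 on NCO. ASO was thus 1.39-fold of ACO, a difference of 0.47, and 1.45-fold of NCO, a difference of 0.54. The ACO and NCO arrays lay close together, at 0.07, which is below the median spot SD. The spots within 10 rows and columns of the Gjb6 spot were themselves higher on ASO, by a median of 0.11 against ACO and 0.10 against NCO. With those medians taken out the Gjb6 differences were 0.36 and 0.43, still at least 1.2-fold.

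**Figure D1:**
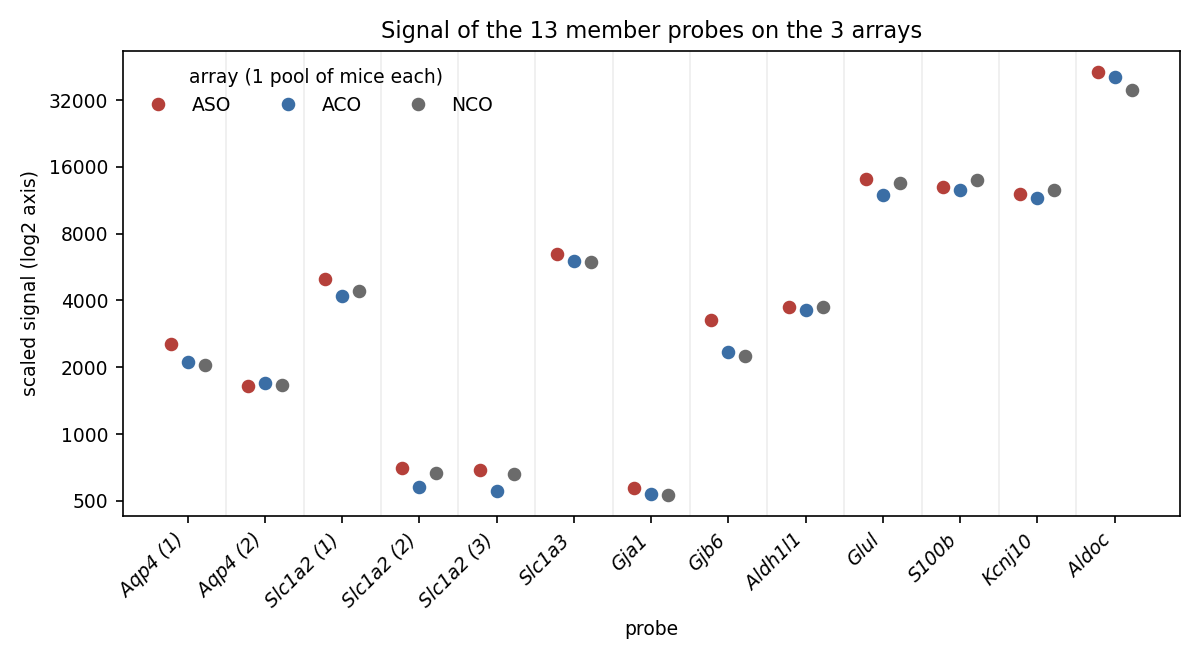
Scaled signal (log2 axis) of each of the 13 probes on the ASO, ACO and NCO arrays, 1 pool of 10 mice per array; numbers in brackets mark different probes of a gene, and levels are not comparable between probes. Gjb6 had 3277 on ASO, above 2349 on ACO and 2241 on NCO, while the points of most other genes nearly coincide.

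Gja1, which encodes connexin 43, the main connexin of astrocytes, had no such difference on average. One probe printed at 10 spots measured it, and the geometric mean over the spots was 570 on ASO, 538 on ACO and 531.7 on NCO. The mean difference was 0.08 for ASO minus ACO, 0.09 for ASO minus NCO and 0.02 for ACO minus NCO. These are within the spread of the spots, whose SD was 0.27, 0.35 and 0.29 in the same order. That spread was large for this array: Gja1 ranked 4, 3 and 1 from the widest among the 250 probes printed at 10 spots, whose 95th percentiles were 0.18, 0.20 and 0.16.

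On the ASO array the 10 spots ran from 489 through a median of 566 to 685. On ACO they ran from 365 through 556 to 696, and on NCO from 382 through 516 to 804. The range on ASO lay within the ranges on the other arrays. Of the 10 spots, 4 were higher on ASO than on ACO, 6 higher on ASO than on NCO, and 6 higher on ACO than on NCO. For ASO minus ACO, single spots ran from -0.28 to 0.57, a range that holds the 0.47 of Gjb6, read at 1 spot. With the median over spots in place of the mean, ASO minus ACO turned to -0.02.

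The authors' deposited table lists Gja1 at 421.3 on ASO, 484.6 on ACO and 740.8 on NCO. Its ratios in the authors' deposited table are 0.869 for ASO over ACO, 0.569 for ASO over NCO and 0.654 for ACO over NCO. Those values are a straight line of the foreground of exactly 1 of the 10 spots, matched to within 0.1 intensity unit. That spot had scaled signals of 489 on ASO, 527 on ACO and 804 on NCO, and its ACO to NCO difference of -0.57 was the largest in size of the 10. Without it, the mean over the other 9 spots was 0.10 for ASO minus ACO, 0.17 for ASO minus NCO and 0.08 for ACO minus NCO. Over all spots of the probe, Gja1 was therefore not lower on ACO than on NCO beyond spot error.

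**Figure D2:**
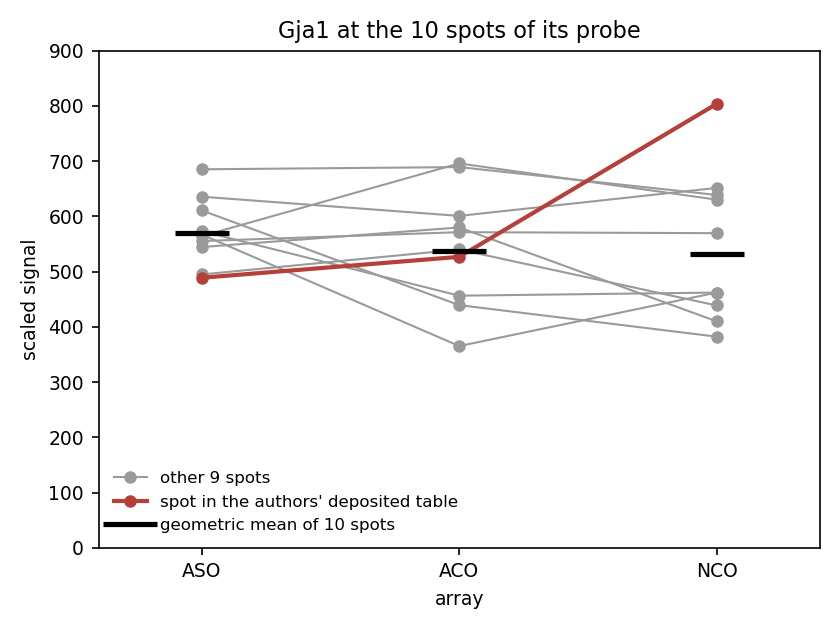
Scaled signal of Gja1 at each of the 10 spots of its probe on the ASO, ACO and NCO arrays; lines join 1 spot across arrays, black bars are geometric means over spots (570, 538 and 531.7), and the red line is the spot whose values the authors' deposited table holds. The red spot reads 804 on NCO, above every other spot there, while the bars of the 3 arrays lie close together.

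Aqp4, the water channel of astrocyte endfeet, gave 2 answers with its 2 probes. The brighter probe, A_55_P2000369, read 2553 on ASO, 2118 on ACO and 2040 on NCO, with ASO higher by 0.26 than ACO and by 0.32 than NCO. The dimmer probe, A_55_P2031939, read 1650 on ASO, 1691 on ACO and 1660 on NCO, with differences of -0.03 and -0.01. Both are annotated to the same transcript. The gene spots around the brighter probe were themselves higher on ASO, by 0.13 against ACO and 0.15 against NCO. After that correction the brighter probe differed by 0.13 and 0.16, which is below 1.2-fold. ACO and NCO read alike with both probes, at 0.05 and 0.03.

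Slc1a2, the glutamate transporter that carries most uptake in the forebrain, had 3 probes with like differences between ASO and ACO. The probe for transcript variant 3 read 4989 on ASO, 4192 on ACO and 4411 on NCO. The brighter of the probes for transcript variant 1 read 703 on ASO, 579 on ACO and 668 on NCO. The other read 686 on ASO, 555 on ACO and 661 on NCO. On each probe ACO was lowest and ASO highest. ASO minus ACO was 0.25, 0.26 and 0.28 on the 3 probes, each more than 2 times the median spot SD of its comparison. With spot means in place of medians, the brightest probe was below that mark, at 0.15. ACO minus NCO was -0.07, -0.19 and -0.23, so the probes for variant 1 differed more from NCO than the probe for variant 3 did. ASO stood above NCO by 0.18, 0.07 and 0.05.

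Slc1a3, the other astrocyte glutamate transporter, read 6506 on ASO, 5999 on ACO and 5974 on NCO. It was higher on ASO by 0.12 than on either of the other arrays, which differed by 0.01. Glul, the glutamine synthetase gene, read 14083 on ASO, 11917 on ACO and 13594 on NCO. Its pattern was that of Slc1a2, lowest on ACO, with 0.24 for ASO minus ACO and -0.19 for ACO minus NCO. ASO and NCO then differed by 0.05. With spot means in place of medians, the Glul difference of ACO minus NCO shrank to -0.04. Its ASO minus ACO was then 0.16, so both sizes depended on how a spot was summarised.

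Kcnj10, the Kir4.1 potassium channel gene, read 12023 on ASO, 11611 on ACO and 12516 on NCO. S100b, a calcium-binding protein gene, read 12916 on ASO, 12537 on ACO and 13953 on NCO. Both were highest on NCO and lowest on ACO, by -0.11 and -0.15 for ACO minus NCO. ASO differed from ACO by 0.05 for Kcnj10 and 0.04 for S100b, which is within spot error. With spot means in place of medians, ASO minus ACO was 0.21 for Kcnj10, past 2 spot SD, and 0.13 for S100b, and ASO minus NCO turned to 0.03 for both, so ASO was then highest. Aldh1l1, a folate enzyme gene widely used to mark astrocytes, read 3730 on ASO, 3607 on ACO and 3733 on NCO. It had the narrowest range of the 10 genes, with 0.05 for ASO minus ACO and -0.05 for ACO minus NCO. With spot means, ASO minus ACO was 0.19 and ASO minus NCO 0.12, and the range was no longer the narrowest.

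Aldoc, the aldolase gene of brain astrocytes, was lowest on NCO, as were Gjb6, Slc1a3, Gja1 and the brighter probe of Aqp4. It read 42842 on ASO, 40716 on ACO and 35358 on NCO. ASO was 1.21-fold of NCO, a difference of 0.28, and ACO stood above NCO by 0.20. The difference of 0.07 for ASO minus ACO was within spot error.

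**Figure D3:**
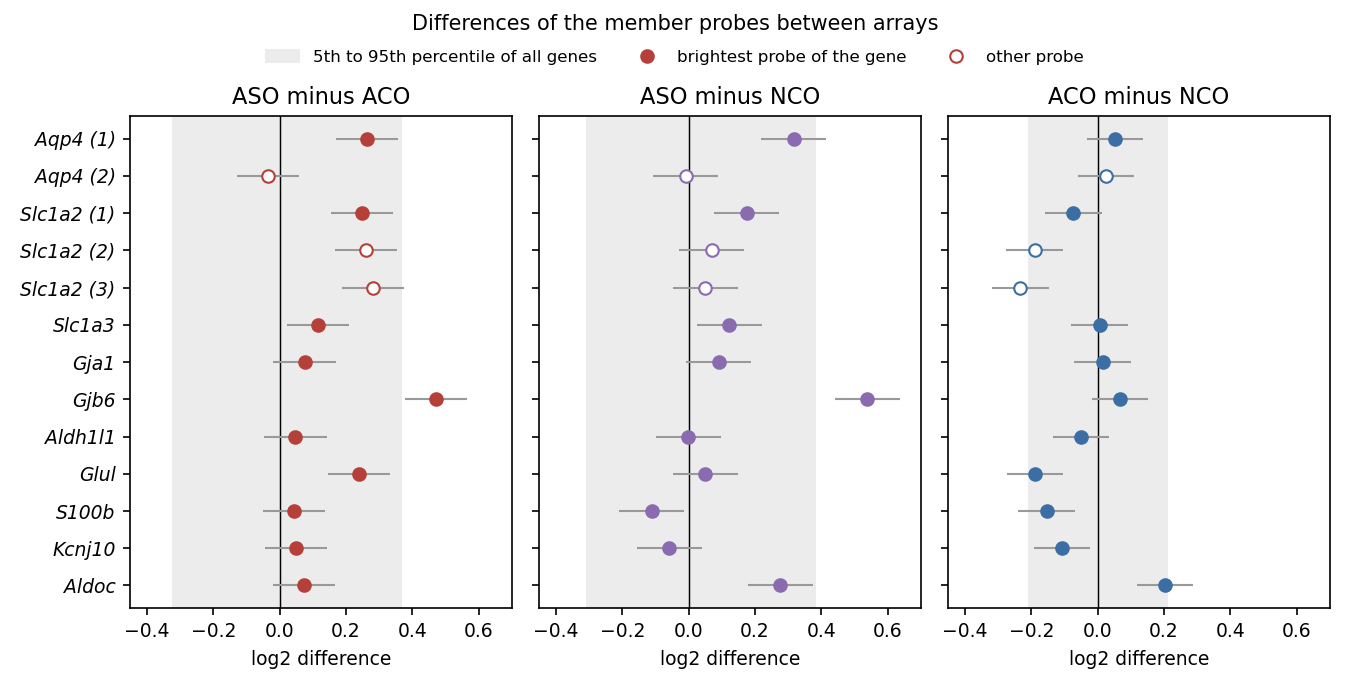
Log2 difference of each of the 13 probes for ASO minus ACO, ASO minus NCO and ACO minus NCO; filled points are the brightest probe of a gene, open points its other probes, bars the median spot SD (0.09, 0.10 and 0.08), and grey bands the 5th to 95th percentile of all genes. Gjb6, at 0.47 and 0.54, is the point outside the bands in the comparisons of ASO, and the probes of Aqp4 separate from each other.

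Counted over the brightest probe of each gene, ASO was higher than ACO for 10 of 10 genes, with a median difference of 0.10. Under quantile normalization the count was 7, since Aldoc, S100b and Kcnj10 turned to -0.12, -0.02 and -0.01. As reported, Gja1, Aldoc, Kcnj10, Aldh1l1 and S100b differed by less than the median spot SD of 0.09. Their differences were 0.08, 0.07, 0.05, 0.05 and 0.04. Among all 13571 genes measured in both, 47.1% were higher on ASO and the median was -0.01. Gjb6 and Aqp4 were at least 1.2-fold higher and no gene was lower by as much, where 10.1% and 9.26% of all genes were so in the 2 directions. Aqp4 was just past that size, at 1.201-fold, and reached it in 9 of 14 alternative settings. None of the 10 was 2-fold apart, against 0.251% of all genes. Gjb6, Aqp4, Slc1a2 and Glul lay beyond the 2 spot SD mark of 0.19. With spot means in place of medians, Slc1a2 was below it at 0.15 and Glul at 0.16. Kcnj10 at 0.214 and Aldh1l1 at 0.191 were then past it. Glul was at 0.16 under quantile normalization too. Aqp4 was at 0.13 after correction by surrounding spots and -0.03 with its dimmer probe. Gjb6 stayed beyond the mark in all 14 alternative settings. The share of all genes beyond that mark was not counted. Only Gjb6 lay outside the 5th to 95th percentile of all genes, -0.32 to 0.37.

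Between ASO and NCO, 7 of the 10 genes were higher on ASO and 3 lower (from 6 to 10 higher over 14 alternative settings), with a median of 0.11, where 47.1% of 13460 genes were higher and the median was -0.01. Gjb6, Aqp4 and Aldoc were at least 1.2-fold higher and none was at least 1.2-fold lower, against 10.3% and 8.31% of all genes. Aldoc was at 0.17, below 1.2-fold, under quantile normalization. Aqp4 was below 1.2-fold in 3 of the 14 settings, at 0.16 after correction by surrounding spots, 0.15 as a mean over probes and -0.0080 with the dimmer probe. Again none was 2-fold apart, against 0.267%. Between ACO and NCO, 5 genes were higher and 5 lower on ACO, with a median of -0.02, where 51.8% of 13317 genes were higher and the median was 0.00479. No gene reached 1.2-fold in either direction there, against 2.76% of all genes higher and 2.72% lower, and none 2-fold, against 0.0751%. By brightest probe, Aldoc at 0.20 and Glul at -0.19 were the only ones of the 10 beyond 2 spot SD of that comparison, 0.17. Both lay within the 5th to 95th percentile of all genes, -0.21 to 0.21. Glul was at -0.04 with spot means in place of medians. The probes of Slc1a2 for transcript variant 1 were also beyond 2 spot SD, at -0.19 and -0.23, the latter outside that percentile range. Its brightest probe was at -0.07. The share of all genes beyond 2 spot SD was not counted there either.

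The 10 genes are bright, so they were also set beside the genes of like brightness, with mean signals between 546 and 39510. Of 7559 such genes, 42.1% were higher on ASO than on ACO, with a median of -0.04, and 8.93% were at least 1.2-fold higher. For ASO minus NCO, 41.3% of 7561 genes were higher, with a median of -0.04. For ACO minus NCO, 50.9% were higher, with a median of 0.00205. These shares describe the arrays, and the direction of the 10 genes was not tested.

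**Figure D4:**
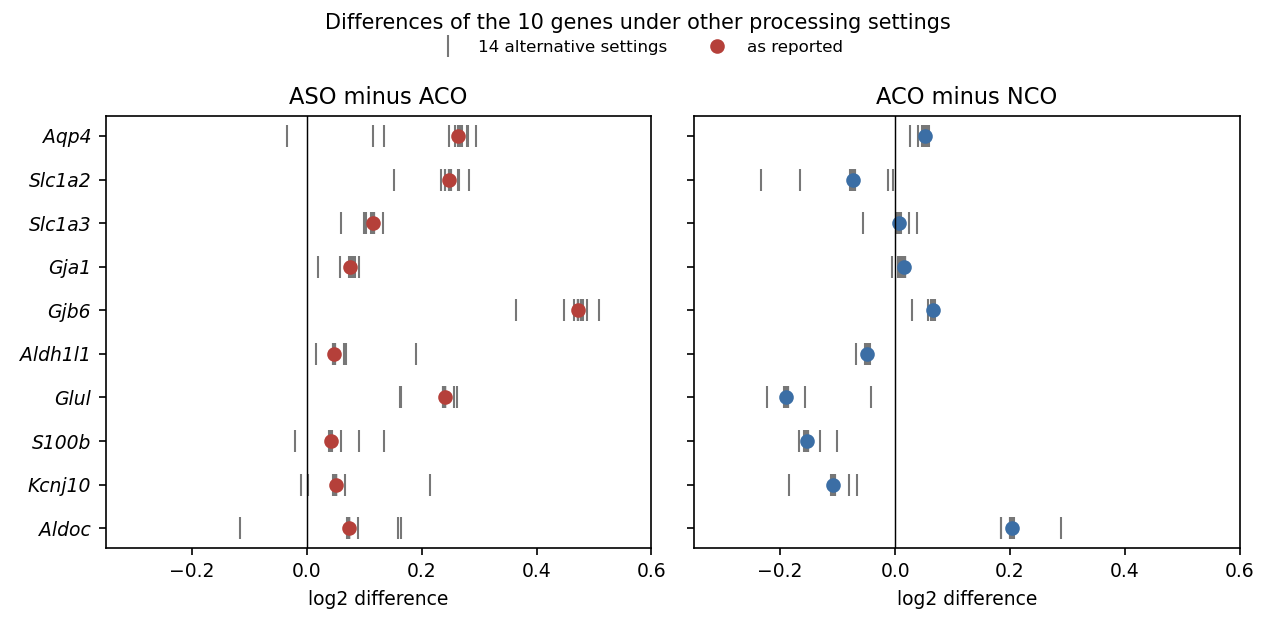
Log2 difference of each of the 10 genes for ASO minus ACO and ACO minus NCO, as reported (filled points, in the colour of each panel) and under 14 alternative processing settings (grey ticks). Gjb6 stays between 0.36 and 0.51 for ASO minus ACO, while ticks of Aqp4, S100b, Kcnj10 and Aldoc cross 0.

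For all lists below, 10.1% of all genes were at least 1.2-fold higher and 9.26% lower for ASO minus ACO. These shares were 10.3% and 8.31% for ASO minus NCO, and 2.76% and 2.72% for ACO minus NCO. The lists were not tested against them. Of 14 measured other genes of glutamate, glutamine and GABA handling, 6 were higher and 8 lower on ASO than on ACO. Their median was -0.06, and 2 were at least 1.2-fold higher and 2 lower. Glud1, glutamate dehydrogenase, was higher by 0.35 and Slc38a3, a glutamine carrier of astrocytes, by 0.28. Abat, GABA transaminase, stood at -0.29. For ASO minus NCO the median was -0.14, with 1 at least 1.2-fold higher and 2 lower. For ACO minus NCO it was -0.06, and none of the 14 reached 1.2-fold. The 7 neuronal and vesicular glutamate transporter genes had medians of -0.09 for ASO minus ACO, -0.11 for ASO minus NCO and 0.00615 for ACO minus NCO. Of these, Slc17a7, a vesicular transporter of excitatory neurons, was 1.2-fold higher on ASO than on ACO at 0.28, and Slc17a6, a related one, was lowest at -0.26 there and -0.30 against NCO, the 1 at least 1.2-fold lower.

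Among the other connexins, pannexins and junction partners, 9 of 13 measured genes were higher on ASO than on ACO, with a median of 0.08, and Gja5 was not well above background. Hepacam, a cell adhesion protein of astrocyte junctions, read 531 on ASO, 413 on ACO and 379 on NCO. It stood 0.33 above ACO and 0.44 above NCO, second to Gjb6 among all junction genes here. Of the 13 genes, 2 were at least 1.2-fold higher in each of these comparisons, Hepacam among them, and none was at least 1.2-fold lower. Gjb2, which encodes connexin 26, lies next to Gjb6 with 0 protein-coding genes between them in the RefSeq annotation. It had the opposite direction to Gjb6, with 371 on ASO, 432 on ACO and 426 on NCO, or -0.19 against ACO and -0.18 against NCO. Medians of the 13 were 0.02 for ASO minus NCO and -0.02 for ACO minus NCO, where none reached 1.2-fold.

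Of 11 measured potassium, sodium pump and pH transport genes, 6 were higher and 5 lower on ASO than on ACO, with a median of 0.00247. Fxyd1, a regulator of the sodium pump, read 13339 on ASO, 10594 on ACO and 9474 on NCO, and stood 0.33 above ACO and 0.49 above NCO. Atp1b2, the pump's β2 subunit, read 6738 on ASO, 5455 on ACO and 5117 on NCO, at 0.30 and 0.39. These were the 2 genes at least 1.2-fold higher in both comparisons of ASO. Kcnk2, a potassium channel gene, was lowest for ASO minus ACO at -0.24, with dim signals of 87.3 on ASO and 113 on ACO. It was not well above background on NCO. Car2, a carbonic anhydrase, was lower by 1.2-fold on ASO than on NCO, at -0.32. The list's median was -0.02 over 10 genes for ASO minus NCO and 0.00971 for ACO minus NCO, with none at 1.2-fold between ACO and NCO. Kcnj2 was not well above background.

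Of 9 measured genes that anchor AQP4 at endfeet, with related channels, 4 were higher and 5 lower on ASO than on ACO, with a median of -0.03 and none at 1.2-fold. Against NCO, 7 were higher and 2 lower on ASO, and 6 higher and 3 lower on ACO. Dag1, dystroglycan, read 1389 on ASO, 1216 on ACO and 1135 on NCO, and was the 1 gene to exceed NCO by 1.2-fold on ASO, at 0.28. Trpv4, a calcium channel, read 419 on ASO, 505 on ACO and 347 on NCO, and Aqp1, a water channel of choroid plexus epithelium, 322 on ASO, 359 on ACO and 290 on NCO. On ACO both exceeded NCO by 1.2-fold or more, at 0.48 and 0.27. Medians were 0.10 for ASO minus NCO and 0.07 for ACO minus NCO, and Aqp9 and Sntb1 were not well above background. Choroid plexus markers went with the Trpv4 and Aqp1 values: ACO exceeded NCO by 1.2-fold or more in 9 of 10, and their part in these values was not tested.

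Glucose, glycogen, lactate and other aldolase genes stayed below 1.2-fold in all 3 comparisons, with medians of -0.05 over 11 genes for ASO minus ACO, -0.03 for ASO minus NCO and -0.03 over 12 genes for ACO minus NCO. Ldhb, a lactate dehydrogenase subunit gene, was lowest for ACO minus NCO at -0.24. Aldoa was saturated and was not compared with Aldoc. The 30 other astrocyte identity genes split, with 14 higher and 16 lower on ASO than on ACO and a median of -0.04. Of them, 7 were at least 1.2-fold higher and 3 lower. Cyp4f15, a cytochrome P450, was highest at 0.67, followed by Bcan, the matrix proteoglycan brevican, at 0.60. Nfib, a transcription factor, was lowest at -0.36 and Plpp3, a lipid phosphatase, next at -0.27. For ASO minus NCO the median was -0.03, with 7 at least 1.2-fold higher and 2 lower. Clu, clusterin, was highest at 0.56, with 45% of the pixels of its spot saturated on ASO and 0% on NCO. Slco1c1, a thyroid hormone carrier, was lowest at -0.30. For ACO minus NCO the median was -0.03, and no gene of the 30 reached 1.2-fold.

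Reactive astrocyte genes differed from this picture. Of 18 measured, 16 were higher on ASO than on ACO, with a median of 0.27, and 9 were at least 1.2-fold higher and 1 lower. Lcn2, lipocalin 2, read 280 on ASO, 110 on ACO and 82.1 on NCO, and its difference of 1.05 was the 1 at 2-fold between ASO and ACO. Cxcl10, a chemokine, read 383 on ASO, 167 on ACO and 131 on NCO, at 1.00. Gfap, the astrocyte filament gene, was chosen after its values were seen and read 5213 on ASO, 2882 on ACO and 2892 on NCO, at 0.84 for ASO against either array. For ASO minus NCO the list's median was 0.34, with 12 of 17 genes at least 1.2-fold higher. For ACO minus NCO it was 0.17, with 6 at least 1.2-fold higher and 1 lower. Relatives of S100b also lay higher, with 6 of 8 higher on ASO than on ACO and medians of 0.09, 0.20 for ASO minus NCO and 0.15 for ACO minus NCO. S100a9, a neutrophil gene, was furthest apart, with 70.4 on ASO, 143 on ACO and 71.5 on NCO, which gave -0.68 for ASO minus ACO and 0.67 for ACO minus NCO. S100a4, a gene of several migrating cell types, stood 0.67 above NCO on ASO and 0.47 on ACO.

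**Figure D5:**
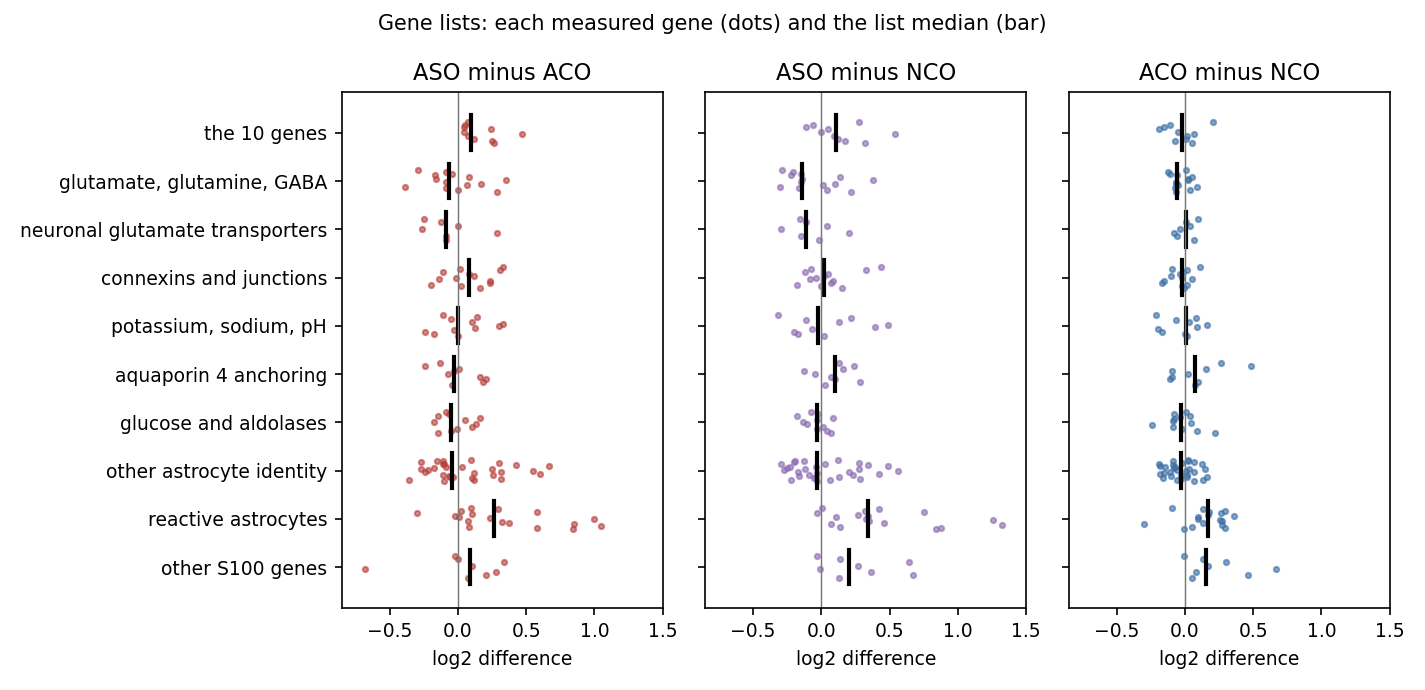
Log2 difference of every measured gene (dots) and the median (black bar) of the 10 genes and of 9 related lists, for ASO minus ACO, ASO minus NCO and ACO minus NCO. The bar of the 10 genes lies at 0.10, 0.11 and -0.02, that of reactive astrocyte genes at 0.27, 0.34 and 0.17, and those of the transport, junction and glucose lists between -0.14 and 0.10.

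Markers of other cells also differed between the pools, and their part in the values above was not tested. Summed signals of microglia markers were 43014 on ASO, 32263 on ACO and 37614 on NCO, with Cd68 not well above background. Without Itgam, an integrin gene that read 4795 on ASO, 3764 on ACO and 8531 on NCO, the sums were 38219 on ASO, 28499 on ACO and 29084 on NCO. Against ACO, the ASO array had 9 of 12 such genes higher by 1.2-fold or more and 1 lower, with medians of 0.43, 0.45 for ASO minus NCO and -0.09 for ACO minus NCO. Neuron markers summed to 136143 on ASO, 116209 on ACO and 122136 on NCO. Their 12 genes had medians of 0.21, 0.04 and -0.09 in the same order. Oligodendrocyte and myelin markers summed to 106730 on ASO, 95643 on ACO and 107254 on NCO. All 12 of them were lower on ACO than on NCO, with a median of -0.14. Their medians were 0.08 for ASO minus ACO and -0.14 for ASO minus NCO. Sums of all these cell types, and of precursor, endothelial and choroid plexus markers, were lowest on ACO. By brightest probe, Slc1a2, Glul, Aldh1l1, S100b and Kcnj10 were lowest there too, and the other genes of the 10 on NCO. Sums of ependymal and leptomeningeal markers were lowest on NCO. The 7 measured precursor markers had medians of 0.18, 0.04 and -0.03 and summed to 11560 on ASO, 10672 on ACO and 11411 on NCO, with Neu4 not well above background. Endothelial markers had medians of 0.08, 0.01 and -0.07 and summed to 15212 on ASO, 14903 on ACO and 15364 on NCO. Tek was not well above background, nor was Pecam1 on ASO, and the sums leave out both.

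Choroid plexus markers had medians of -0.19 for ASO minus ACO, 0.32 for ASO minus NCO and 0.50 for ACO minus NCO. Their sums were 21990 on ASO, 21784 on ACO and 25216 on NCO, an order set by Ttr, the brightest of them, which was -0.46 on ACO minus NCO while the other 9 were higher. The 8 ependymal markers had medians of -0.04, 0.12 and 0.15 and summed to 4549 on ASO, 4638 on ACO and 4226 on NCO. Medians were -0.09, 0.16 and 0.13 over the 9 measured markers of the leptomeninges, where Slc47a1 was not well above background. Gjb2 is made by cells of the leptomeninges too, and those markers summed to 11023 on ASO, 11073 on ACO and 10248 on NCO.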

How the data were processed

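Hippocampal RNA of 3 groups, 1 pool of 10 mice each (5 sets of 2 mice, 200 ng of RNA labelled with Cy3), was hybridised to one-colour Agilent arrays on 1 slide. Spot intensities at 532 nm were deposited by the authors without normalization, as read by GenePix Pro 6.1.0.4 on a 4000B scanner, per the file headers. Each spot's score for signal over noise, its saturated pixels in percent and its spot mark were also deposited, per the file headers. The submitters' processing notes also name Agilent Feature Extraction. The authors' deposited table holds intensities of 475 probes, as a straight line of the foreground with slopes of 0.893 on ASO, 0.917 on ACO and 1 on NCO. The scale of that table is therefore linear, and the reason for the slopes is unknown.

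Local background medians were removed from foreground medians by normexp (limma 3.58.1, R 4.3.3). Arrays were scaled to a common 75th percentile, by 0.992 on ASO, 0.950 on ACO and 1.06 on NCO, and 50 was added before log2, which draws differences of dim probes towards 0. A probe entered a comparison with a signal to noise score from 2.6 upwards on both arrays, unless both spots had 50% of saturated pixels. The brightest entered probe stood for a gene, and spots of a probe were averaged. Names came from the files, updated through RefSeq (GRCm38.p6) for 26581 probes by accession, 2597 by symbol and 490 by synonym. Later steps used Python 3.11.15, numpy 2.4.6 and pandas 2.3.3, and were tested on simulated data. As each group had 1 array, genes were described by size, with no test. All 10 genes are named, and of the 17 other lists at most the 2 highest and 2 lowest genes of a comparison, with Gjb6's nearest genes by pattern. Gfap was named outside that rule, after its values were seen. A few genes of these lists are counted but not reported by name here. The genes and lists were chosen with earlier results of these data known. The labels' protocol calls 1 injected group by a name that no sample carries, and ASO was taken as that group. Alternatives covered background, scaling, the added constant, the probe filter, the probe that stands for a gene and position on the array.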

Additional observations from a re-analysis of the deposited data

How the results depend on the processing

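Each of 75 results was recomputed under 14 alternatives, with 3 more for Gja1. Of 1059 values, 1024 moved by less than spot error or, for counts, by less than 1.5 times. Among 429 differences of single genes, 16 had another sign, 5 of them with spot means and 4 after quantile normalization. With the dimmer probe of Aqp4, chosen as an alternative after seeing the data, ASO stood at -0.034 against ACO and -0.0080 against NCO. The number of genes in which ASO exceeded ACO by 1.2-fold was 2 as reported and 1 without background subtraction, with a constant of 200 or after correction by surrounding spots, and 3 when scaled over probes well above background. For ACO minus NCO, 3 genes were higher with spot means in place of medians, and 1 was at least 1.2-fold higher after quantile normalization, which was Aldoc. Gjb6 stayed at least 1.2-fold higher on ASO in all 14, from 0.36 to 0.51 against ACO and from 0.43 to 0.56 against NCO. None of the 14 scaled the arrays to the spike-in control probes. The median of the 10 genes lay between 0.07 and 0.16 for ASO minus ACO, 0.05 and 0.12 for ASO minus NCO, and -0.02 and -0.00268 for ACO minus NCO. The causes of these shifts were not tested. No paired analysis was possible because each group has 1 array. All 13 probes lay far above background, and the spread between pools was not measured.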

Other observations

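The spot behind the deposited Gja1 values is 1 case of 27. The authors' deposited table holds 27 probes that were printed at 10 spots, and for all 27 its values match exactly 1 spot. In 19 of them that spot has the largest ACO to NCO difference in size of the 10. In 5, Gja1 included, the spot and the mean of the 10 spots have opposite signs, and in 2 the mean over spots is at least 1.2-fold apart. Those 2, chosen after their values were seen, are C1qc, a complement gene of microglia, with a mean of -0.45, and Slc2a4, a glucose transporter gene, with 0.33. In the authors' deposited table, 144 probes have a ratio of ACO over NCO above 1, the lowest being 1.51, and 331 a ratio below 1, the highest being 0.755. No listed ratio lies between these, so every listed spot was far apart there. The counts above are thus not for probes printed at 10 spots in general.

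The 3 genes nearest to Gjb6 in pattern over the 3 arrays, by Euclidean distance of centred log2 values among 9897 genes, were Colgalt1, Col16a1 and Cadm1, at distances of 0.017, 0.019 and 0.024. Within the median spot SD lay 118 genes, so with 3 arrays the pattern is shared by many. Gjb6 and Colgalt1 differed by 0.47 and 0.49 for ASO minus ACO.

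Spike-in control probes were also read. The 5 of 10 that were measured had median differences of 0.48 for ASO minus ACO, 0.34 for ASO minus NCO and -0.14 for ACO minus NCO on the scale used for the genes. Their differences for ASO minus ACO ran from 0.41 to 0.82, a range that holds the 0.47 of Gjb6. All of the 10 genes lay below the spike-in median of 0.48 for ASO minus ACO. The count of 10 genes higher on ASO than on ACO is thus for the scale used, and scaling to spike-ins was not run.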
